A study of Mus musculus with 6 samples.

Results

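The genes for the writers, readers and erasers of N6-methyladenosine (m6A) in RNA were followed in M II oocytes of aged mice matured with or without quercetin. The set was chosen by gene symbol and holds 10 genes, which are the writers *Mettl3*, *Mettl14* and *Wtap*, the readers *Ythdf1*, *Ythdf2*, *Ythdf3*, *Ythdc1* and *Ythdc2*, and the erasers *Alkbh5* and *Fto*. All 10 were found among the 53465 gene rows of the count table, and all 10 were among the 11842 genes with enough reads to be tested. The control group was 3 pools of oocytes matured in M16 medium without quercetin, and the treated group was 3 pools matured with 10 μM quercetin. Each pool combined 15 oocytes from 3 naturally aged Kun Ming females of 9 to 10 months. The oocytes of both groups were collected as GV oocytes, freed of cumulus cells by pipetting, and taken at the M II stage after IVM of 16 h. The sources used here do not say whether the control medium of these pools carried the quercetin solvent, or which mice gave oocytes to which pool. The Smart-seq libraries were copied from polyadenylated RNA, and a value is that of a whole pool of oocytes.

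m6A is a methyl mark that is put on adenosines inside mRNA, removed again, and read by proteins that bind it. METTL3 is the subunit that transfers the methyl group, METTL14 is its partner that helps hold the RNA, and WTAP brings the pair to nuclear speckles. Proteins with a YTH domain bind the mark. YTHDF2 recruits the CCR4-NOT deadenylase and so starts decay of marked mRNA, and oocytes need it to clear maternal transcripts. Oocytes no longer transcribe once they are fully grown, so the mRNA of an M II oocyte is a store that is translated, kept or degraded.

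Total counts on genes ran from 7880467 to 9938743 per pool. Values below are CPM, the counts relative to library sizes scaled by TMM, unless a count is named. Among oocyte markers *Zp2*, a zona pellucida gene, ranged most within groups, 6.99-fold among control and 10.1-fold among quercetin pools. All 12 oocyte markers were detected in every pool. Of 13 cumulus and granulosa cell markers, *Foxl2*, *Amh*, *Amhr2* and *Ptx3* were at 0 in every pool. The summed level of the 13 was 70.23 to 86.02 CPM in control pools and 91.28 to 96.4 CPM in quercetin pools, and most of it was *Cyp19a1*. Of the 13, 4 had enough reads to be tested. Of these 4, *Cyp19a1* and *Kitl* were higher in every quercetin pool than in every control pool, beside 5.42% of all tested genes. So were *Lhcgr* and *Tnfaip6*, which had too few reads to be tested. *Lhcgr* and *Tnfaip6* had 0 counts in the controls and 2 to 8 with quercetin. The means of *Ptgs2*, *Fshr* and *Star* were lower with quercetin, with overlap. The part of these differences in the results below was not tested. Because each value is that of a whole pool, fewer oocytes with a transcript and less of it per oocyte cannot be told apart. The values are also relative to each library, so a change in total mRNA per oocyte would not be seen.

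The 3′ ends of these mRNAs are shown first, because the poly(A) tail that the library kit copies from is added there, and tails are lengthened or shortened as oocytes mature. One principal protein-coding transcript per gene was read from GENCODE M21, and its last 100 bases were searched on the sense strand. A poly(A) signal, AATAAA or ATTAAA, was present in 10 of 10 members and in 83.2% of the last 100 bases of 9293 tested genes. The cytoplasmic polyadenylation element, searched as TTTTAT or TTTTAAT, was present in 2 of 10 members, *Mettl14* and *Wtap*, and in 22% of the same windows. These words can overlap, and a match is a description of the letters. In the sites below, capitals mark the poly(A) signal and, in *Mettl14* and *Wtap*, also the cytoplasmic polyadenylation element. Each runs 5′ to 3′ along the mRNA in GRCm38.
Mettl3, chr14:52294873-52294902, minus strand: tcccctaccctgtatataAATAAATAAAag
Mettl14, chr3:123368312-123368341, minus strand: TTTTATtttgctataacttttctAATAAAa
Wtap, chr17:12966802-12966831, minus strand: ctgaccaaacctaAATAAAcatTTTTATta
Ythdf2, chr4:132184928-132184957, minus strand: atatacaaattttttacatttaATTAAAaa
Ythdf3, chr3:16216995-16217024, plus strand: ctctttaatctttgagggtttcAATAAAaa
The element of *Mettl14* starts 23 bases before its signal, while a copy in *Wtap* follows the signal. Within the searched window *Ythdf2* was the member with only ATTAAA, the less frequent form, which 22.4% of windows held, against 68.2% for AATAAA.

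To place the members by abundance, CPM were divided by the kilobases of exon of each gene. *Wtap* had the highest level at 113.4 ± 15.6 CPM per kilobase (SD over 6 pools), above 95.5% of tested genes. *Ythdf3* followed at 55.83 ± 19.8 and *Ythdf2* at 26.46 ± 3.41 CPM per kilobase, and every pool held more *Wtap* than *Ythdf3* and more *Ythdf3* than *Ythdf2*. Next came *Ythdc1* at 8.05, *Mettl3* at 7.87 and *Alkbh5* at 7.44 CPM per kilobase, whose ranges over the pools overlapped, so that their order was not resolved. *Ythdc2* and *Mettl14* were lower, at 2.17 and 2.04 CPM per kilobase, and again overlapped. *Ythdf1*, at 0.924 ± 0.238 CPM per kilobase, was below *Mettl14* in every pool, or in 5 of 6 with the longest transcript as length. *Fto* was the least abundant member at 0.129 ± 0.0423 CPM per kilobase, with only 0.567% of tested genes below it. The highest and lowest members thus differed 880-fold per kilobase of exon. Neither this ratio nor the rank among tested genes was computed with the longest transcript as length.

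**Figure D1:**
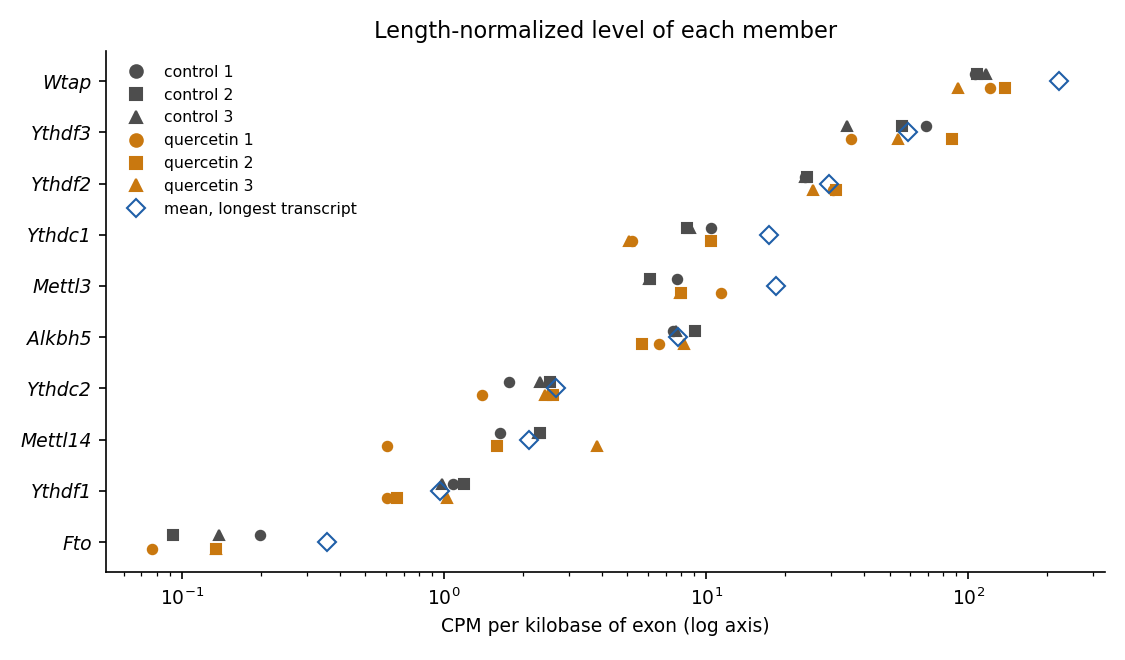
Length-normalized level of each member, in CPM per kilobase of exon on a log axis, with 1 symbol per pool (control above, quercetin below) and the mean with the longest transcript as length as a diamond. *Wtap*, *Ythdf3* and *Ythdf2* stand above the other members in every pool, and *Fto* stands below the rest.

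The length used matters most for *Mettl3*, *Wtap*, *Ythdc1* and *Fto*, whose exons add up to far more than 1 transcript. With the longest annotated transcript in place of all exons, *Mettl3* was at 18.5 and *Ythdc1* at 17.4 CPM per kilobase, which reversed their order, and both were above *Alkbh5* at 7.77. *Wtap* then reached 222.3 and *Fto* 0.357 CPM per kilobase, and they kept the first and the last place.

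The effect of quercetin on these transcripts was tested in the fit of all genes, with edgeR's quasi-likelihood test. No member, and none of the tested genes, met an adjusted p under 0.05 with a fold change over 2 (0% of 11842 genes), and the smallest adjusted p of a member was 0.988 after Benjamini-Hochberg adjustment in edgeR. Without adjustment, a p under 0.05 was reached by 0 of 10 members, beside 4.03% of all tested genes (253 higher and 224 lower with quercetin). Scaled by total counts alone, 145 genes were higher and 359 lower by this rule, and again 0 of 10 members. DESeq2 gave 0 members by the adjusted rule, beside 11 of all 11842 genes. Without adjustment DESeq2 gave 1 member, *Mettl3*, beside 384 of all 11842 genes. The DESeq2 95% interval of the log2 fold change of *Mettl3*, 0.0060 to 0.96, only just left out 0. The log2 fold changes of the members ran from -0.50 to 0.46, with 4 above 0 (46.4% of tested genes were) and 6 below, and a median of -0.041, while the median of all tested genes was -0.026. For 6 of 10 members the whole 95% interval lay within a fold change of 2 either way, as for 60.7% of tested genes. For *Mettl14*, *Ythdf1*, *Ythdc1* and *Fto* a change of 2-fold or more in at least one direction was not excluded by the interval.

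**Figure D2:**
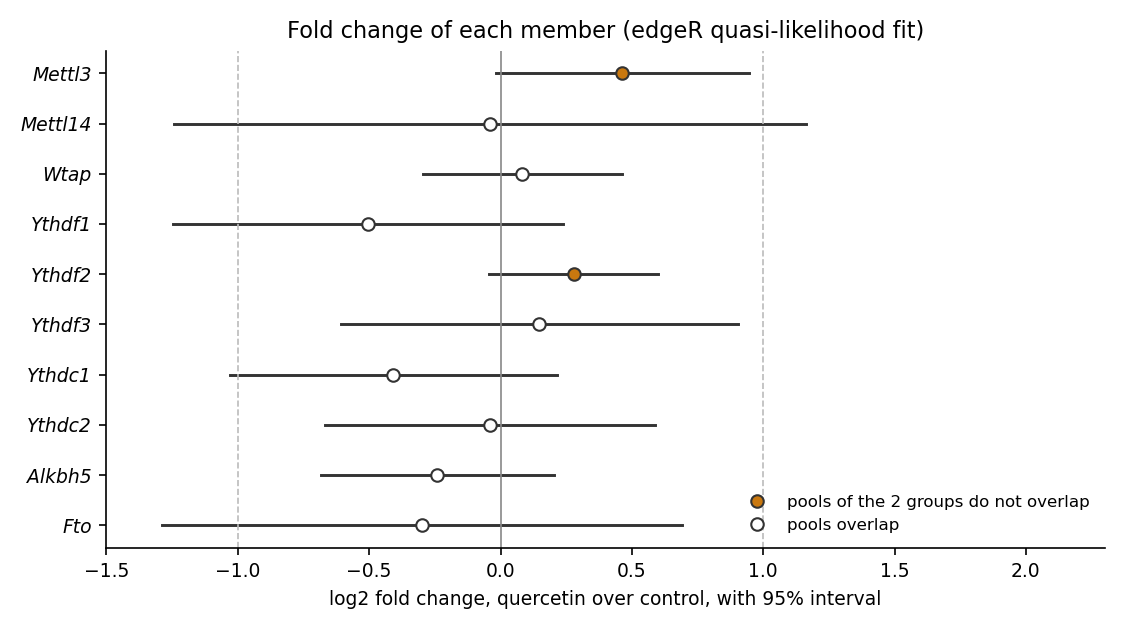
Log2 fold change of each member, quercetin over control, with its 95% interval from edgeR's quasi-likelihood fit; dashed lines mark a 2-fold change and filled points mark members whose pools do not overlap between groups. Every interval includes 0, and the widest, that of *Mettl14*, runs from -1.24 to 1.16.

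The catalytic writer *Mettl3* (ENSMUSG00000022160, chromosome 14 from 52294841 to 52305128) was measured at 39.15, 30.92 and 30.62 CPM without quercetin and at 57.8, 40.8 and 40.4 CPM with it. The quercetin pools were all above the controls, with quercetin replicate 1 the highest by far. Its mean went from 33.6 ± 4.84 to 46.3 ± 9.96 CPM (SD, n = 3). On the log2 scale the difference was 0.46 with a standard error of 0.213 and a 95% interval of -0.018 to 0.95. A two-sided exact permutation test gave p = 0.1, the smallest that 3 pools against 3 allow, and edgeR gave p = 0.0573 before and an adjusted p of 0.988 after Benjamini-Hochberg adjustment. When libraries were scaled by their totals alone, the *Mettl3* pools overlapped. Without quercetin replicate 1 the log2 fold change was 0.27. About 18.4% of its exon bases are shared with *Tox4* on the other strand, which had 27 to 40 counts in every pool and a log2 fold change of 0.030.

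*Mettl14*, the RNA-holding partner of METTL3 (ENSMUSG00000028114, chromosome 3 from 123368297 to 123386108), differed most between pools of 1 group. Control pools held 108, 143 and 151 reads, and quercetin pools held 36, 108 and 243. Quercetin replicate 1 held the lowest and quercetin replicate 3 the highest value, 6.34-fold apart after scaling, so the control pools lay between them. The within-group SD of log2 CPM was 0.918, larger than in 97.1% of tested genes. Its log2 fold change was -0.041 with a 95% interval of -1.24 to 1.16. A 2-fold difference either way was thus not excluded at this spread. Replicate 1 was also the lowest pool of its group for *Zp2*, at 222.6 CPM in control and 130.5 CPM in quercetin, and for *Mettl14*, at 12.1 and 4.495 CPM. *Zp2* was picked out for this after its values were seen, and its part in the spread was not tested.

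The scaffold gene *Wtap* (ENSMUSG00000060475, chromosome 17 from 12966796 to 12994169) stood at 661.9, 675.3 and 726.6 CPM without quercetin and at 755.7, 859.5 and 571.5 CPM with it. The quercetin pools lay on both sides of the controls. The log2 fold change was 0.084 (standard error 0.168), with a 95% interval of -0.30 to 0.46, or 0.814-fold to 1.38-fold. Words of 31 bases from its transcripts also occur in other genes (9.64% of them), among which *Gm14292* held 586 to 1007 counts per pool, and reads may have been split between them.

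The ratio of *Mettl3* to *Mettl14* within a pool does not depend on how libraries are scaled. Per kilobase of exon it was 4.74, 2.64 and 2.64 in the controls and 18.8, 5.05 and 2.07 with quercetin. The quercetin pools span the controls, and the pool at 18.8 is the one that was highest in *Mettl3* and lowest in *Mettl14*. *Mettl3* exceeded *Mettl14* per length in all 6 pools, also with the longest transcript as length, where the ratio was 4.72 to 42.9.

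Among the readers, *Ythdf2* (ENSMUSG00000040025, chromosome 4 from 132184912 to 132212303) was the most even. The controls stood at 108.5, 110.4 and 109.1 CPM and the treated pools at 138.7, 142.7 and 116.4 CPM. Control pools differed by no more than 1.02-fold, and all quercetin pools were above them, with replicate 3 the closest. The mean went from 109.3 ± 0.953 to 132.6 ± 14.2 CPM (SD, n = 3). On the log2 scale it differed by 0.28 with a standard error of 0.142 and a 95% interval of -0.043 to 0.60. A two-sided exact permutation test gave p = 0.1, and edgeR gave p = 0.0817 before and an adjusted p of 0.988 after adjustment. The pools stayed apart under both other scalings. Of its 31-base words 12.65% also occur in other genes, mostly in *Gm6823* (11.4%) with at most 1 count and *Gm8401* (11.2%) with 24 to 59 counts per pool. *Mapk8*, with 1160 to 1615 counts, shares 0.151%.

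Both members whose groups did not overlap, *Mettl3* and *Ythdf2*, were higher with quercetin. Among all tested genes, 5.42% were higher in every quercetin pool than in every control pool, 5.17% were lower, and 10.6% did not overlap in either direction, against 2 of 10 members. With 10 members, a single gene is about the size of that background share.

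**Figure D3:**
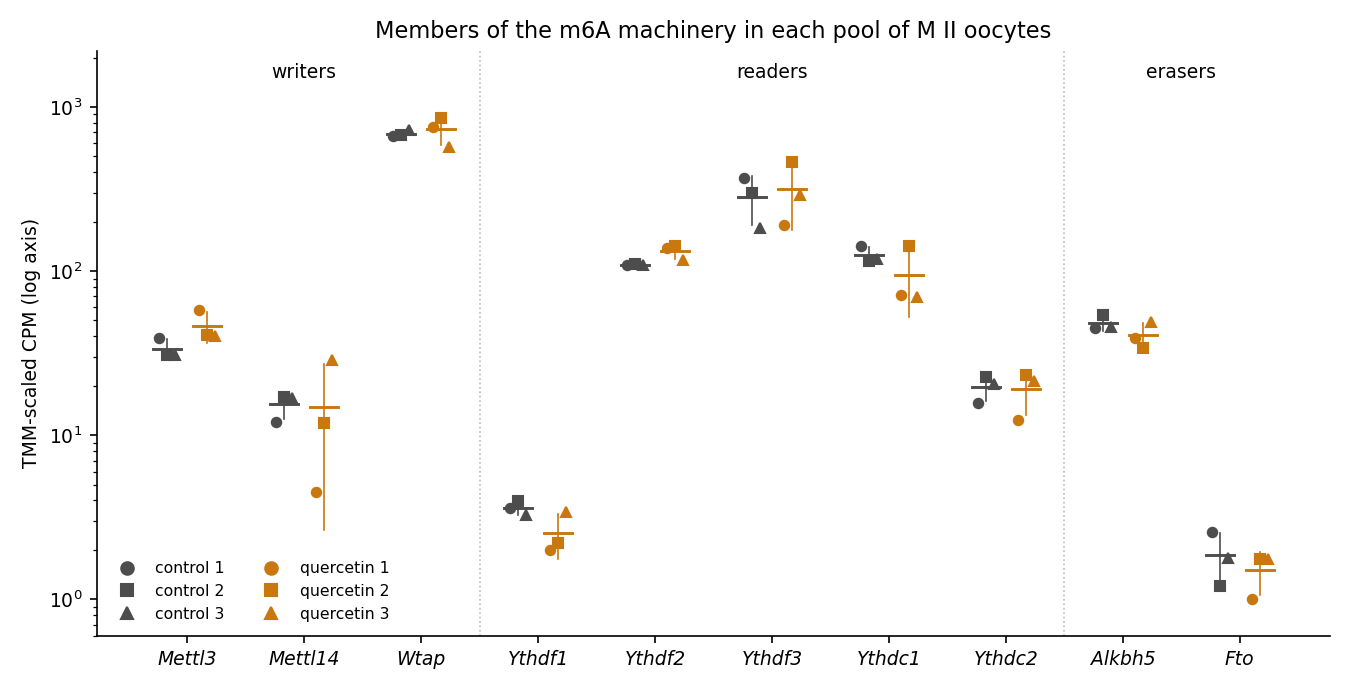
TMM-scaled CPM of the 10 members in each pool on a log axis, ordered as writers, readers and erasers; symbols give the replicate number, horizontal bars the mean and vertical bars the SD of 3 pools. The groups are apart for *Mettl3* and *Ythdf2* and overlap for the other 8 members, and quercetin pools of *Mettl14* spread most.

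*Ythdf3* (ENSMUSG00000047213, chromosome 3 from 16183212 to 16217037), a cytoplasmic reader related to YTHDF2, had control values of 368.7, 299.8 and 183.8 CPM and quercetin values of 191.9, 463.2 and 289.1 CPM. Pools within a group were up to 2.01-fold (control) and 2.41-fold (quercetin) apart, and the groups overlapped. Its log2 fold change was 0.15 with a 95% interval of -0.61 to 0.90. *Ythdf1* (ENSMUSG00000038848, chromosome 2 from 180904377 to 180920949), the other paralogue, gave 32, 33 and 29 reads in the controls and 16, 20 and 29 with quercetin. Quercetin replicates 1 and 2 were below all controls after scaling and replicate 3 was among them. Its log2 fold change of -0.50 carried a standard error of 0.329 and a 95% interval of -1.25 to 0.24, and was -0.77 without quercetin replicate 3. No 31-base word of *Ythdf1* or *Ythdf3* transcripts occurs as an exact match on the sense strand of another gene's annotated transcripts. Near matches and the other strand were not searched.

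Of the summed length-normalized level of *Ythdf1*, *Ythdf2* and *Ythdf3*, *Ythdf3* made up 53.6% to 73.5% and *Ythdf2* 25.4% to 45.5%, while *Ythdf1* made up 0.558% to 1.66%. The share of *Ythdf3* was 73.5%, 68.8% and 58% in the controls, against 53.6%, 73% and 67.1% with quercetin. Shares of the groups overlapped for each paralogue, and *Ythdf3* was the most abundant of them in all 6 pools.

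*Ythdc1* (ENSMUSG00000035851, chromosome 5 from 86804221 to 86836659), the nuclear reader that acts in splicing and 3′ end choice, was at 142.3, 115.2 and 118.7 CPM in the controls and at 71.2, 142.8 and 69.5 CPM with quercetin. Quercetin replicates 1 and 3 were below every control pool, but replicate 2 was the highest of all 6. The log2 fold change was -0.41 (standard error 0.275, 95% interval -1.03 to 0.22). It was -0.24 without quercetin replicate 1 and -0.23 without replicate 3. Without quercetin replicate 2 it was -0.83, past an unadjusted p of 0.05 but with an edgeR adjusted p = 0.915 (0.783 to 1 over the alternatives). *Ythdc2* (ENSMUSG00000034653, chromosome 18 from 44827746 to 44889724), an RNA helicase known for its role in the entry into and progress of meiotic prophase, was at 15.7, 22.5 and 20.5 CPM in the controls and 12.4, 23.2 and 21.5 CPM with quercetin. Replicate 1 was the lowest in either group and the groups overlapped, with a log2 fold change of -0.041 and a 95% interval of -0.67 to 0.59.

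The eraser *Alkbh5* (ENSMUSG00000042650, chromosome 11 from 60536381 to 60558512) had control values of 44.7, 54.2 and 45.8 CPM against 39.3, 34.1 and 49 CPM with quercetin. Quercetin replicates 1 and 2 were below every control pool and replicate 3 lay within the control range. The log2 fold change was -0.24 (standard error 0.196, 95% interval -0.68 to 0.20). It was -0.15 without control replicate 2, -0.12 without quercetin replicate 2 and -0.39 without quercetin replicate 3. *Fto* (ENSMUSG00000055932, chromosome 8 from 91313525 to 91668439), an eraser that also acts on methylated adenosine next to the cap, gave 23, 10 and 16 reads in the controls and 8, 16 and 15 with quercetin, without separation of the groups. These counts are close to the minimum for testing, and its log2 fold change of -0.30 had a 95% interval of -1.29 to 0.69. Per kilobase of exon *Alkbh5* was 37.9 to 98.4 times as abundant as *Fto*, and 14.3 to 37.1 times with the longest transcript as length.

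Erasers were also set against the methyltransferase pair within each pool. The ratio of *Fto* plus *Alkbh5* to *Mettl3* plus *Mettl14*, in CPM per kilobase of exon, was 0.821, 1.09 and 0.936 in the controls and 0.554, 0.606 and 0.706 with quercetin. The quercetin pools were all below the controls, also with the longest transcript as length (0.422 to 0.581 in control and 0.258 to 0.394 with quercetin). *Alkbh5* and *Mettl3* hold most of both sums, but *Alkbh5* over *Mettl3* alone does not separate the groups. *Alkbh5* was above *Mettl3* in quercetin replicate 3 (8.19 against 7.95 CPM per kilobase) and below it in control replicate 1 (7.47 against 7.71). The separation thus also rests on *Mettl14*, which was highest in quercetin replicate 3 at 3.84 CPM per kilobase and varied most between pools. The ratio was given no test, and no share of separated ratios among other sets of genes was computed. Of single tested genes, 10.6% did not overlap between the groups.

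**Figure D4:**
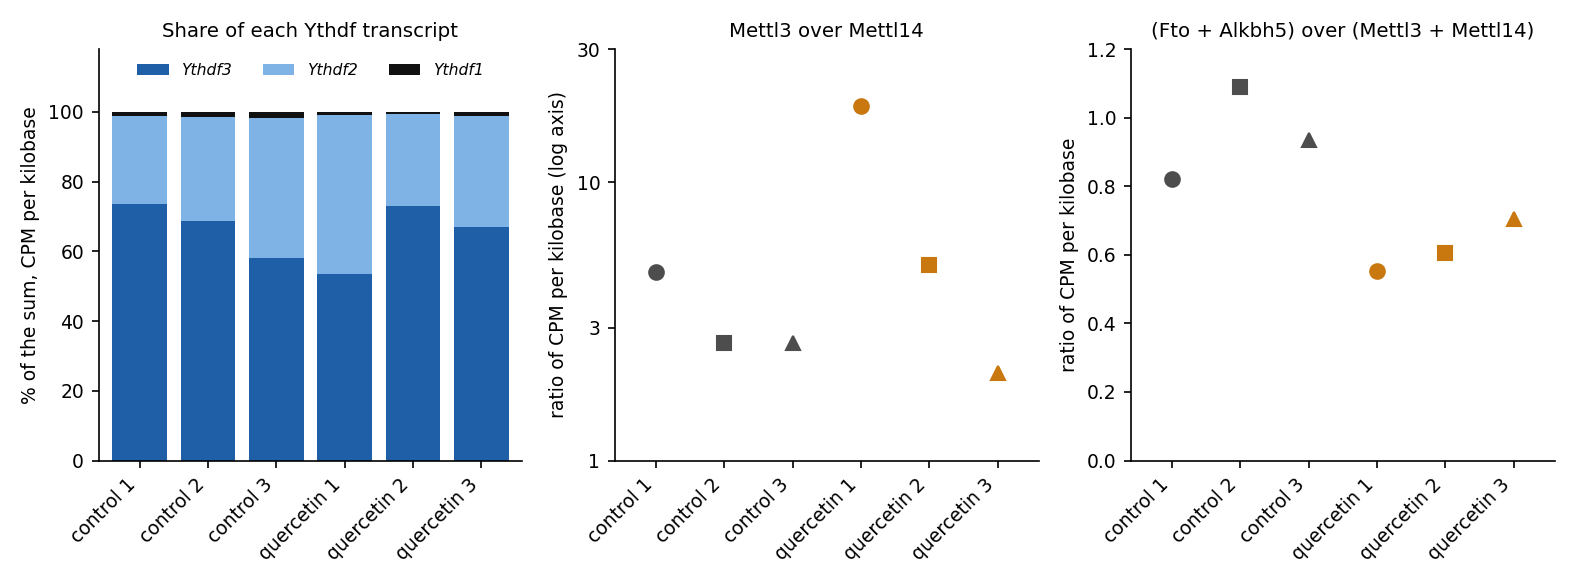
Ratios within each pool from CPM per kilobase of exon: the percent of each of *Ythdf1*, *Ythdf2* and *Ythdf3* in their sum (left), *Mettl3* over *Mettl14* on a log axis (middle), and erasers over the methyltransferase pair (right). The shares and the *Mettl3* to *Mettl14* ratio overlap between groups, and the ratio of erasers is at 0.554 to 0.706 in quercetin pools and 0.821 to 1.09 in control pools.

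The pattern of 2 members over the 6 pools was compared with 7920 genes of at least 5 CPM. For *Mettl3*, the member with the smallest p, *H2afy*, *Pnma5* and *Smad2* had the most similar log2 CPM, with Pearson correlations of 0.99, 0.987 and 0.977. For *Wtap*, the most abundant member, *Larp7*, *Gm11381* and *Zcchc10* were the most similar, at 0.994, 0.993 and 0.988. These values come from 6 pools and the best of many genes, and a correlation over 0.9 was reached by 102 genes for *Mettl3* and by 224 for *Wtap*.

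The other genes of the pathway were taken from 5 lists with 42 genes, of which 39 had enough reads to be tested. None passed the adjusted rule in edgeR's quasi-likelihood test. At an unadjusted p under 0.05, 1 was higher (*Hnrnpc*) and 1 lower (*Cnot3*), beside 2.14% higher and 1.89% lower of all tested genes. The median log2 fold change of the 39 was 0.041.

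All 5 partners of the writer complex were tested, with log2 fold changes of -0.23 to 0.28 and no p under 0.05. *Virma*, the large subunit that holds this complex together, was the most abundant at 41.9 CPM per kilobase, and *Zc3h13* followed at 17.1. The list of 6 genes for other RNA adenosine methyltransferases and their cofactor had a median of 0.12 and again no p under 0.05. *Trmt112*, the cofactor, was the highest of it at 66 CPM per kilobase, and *Pcif1*, which methylates adenosine next to the cap, had 5 CPM per kilobase. Among genes for the supply of the methyl donor, *Mat2b*, a regulatory subunit of the enzyme that makes S-adenosylmethionine, reached 662.6 CPM per kilobase, and the catalytic subunit *Mat2a* 10.1. *Mat2b* stood at 3710, 3522 and 4118 CPM in the controls and at 1952, 4882 and 1698 CPM with quercetin. Quercetin replicates 1 and 3 were below and replicate 2 above all controls, as for *Ythdc1*. Of this list *Ahcy* had too few reads to be tested, with 2, 0 and 0 reads in the controls and 3, 3 and 7 with quercetin, and 71.4% of its 31-base words occur in other genes.

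Of 10 other m6A binding proteins, 8 were tested. *Hnrnpc*, whose protein binds RNA opened up by m6A, was the most abundant at 126.8 CPM per kilobase, followed by *Fxr1* at 41.4. *Hnrnpc* stood at 486.6, 429.3 and 527.6 CPM in the controls and at 608.3, 633.2 and 603.2 CPM with quercetin, without overlap. Its log2 fold change was 0.35 with a standard error of 0.134. A two-sided exact permutation test gave p = 0.1, and edgeR gave p = 0.0267 before and an adjusted p of 0.988 after adjustment (0.324 to 1 over the alternatives). Its unadjusted p was no longer under 0.05 without control replicate 1 or 2 or without quercetin replicate 1 or 2, where the log2 fold change was 0.28 to 0.36, nor with edgeR's likelihood ratio test or the replicate number as a block. Its transcripts share 13.6% of 31-base words with other genes, mainly *Gm12696*, which held 457 to 661 counts per pool and a log2 fold change of 0.17. *Igf2bp1*, with 0 to 3 counts, and *Rbmx*, with 5 to 11 counts per pool, were under the limit for testing.

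The partners of the YTH readers were 16 genes, all tested, which include the CCR4-NOT subunits that YTHDF2 recruits. *Cnot7*, a deadenylase subunit, had 350.3 CPM per kilobase and *Cnot6l*, another, 90.6. *Cnot3*, a non-catalytic subunit of the same complex (ENSMUSG00000035632, chromosome 7 from 3645268 to 3661109), was at 82.3, 81 and 77.7 CPM in the controls and 42.2, 42.6 and 55.4 CPM with quercetin. All quercetin pools were well below the controls, which lay close together. Its mean was 80.35 ± 2.37 CPM in control and 46.7 ± 7.48 CPM with quercetin (SD, n = 3). This was a log2 fold change of -0.78 with a standard error of 0.17 and a 95% interval of -1.17 to -0.40. A two-sided exact permutation test gave p = 0.1, and edgeR gave p = 0.00127 before and an adjusted p of 0.792 after adjustment, which did not pass (0.126 to 1 over the alternatives). Its exons overlap *Leng1* on the other strand, which gave 113, 87 and 89 reads in the controls and 62, 59 and 58 with quercetin. The strand setting is not given, and reads of both genes cannot be told apart in the 7.28% of exon bases that overlap other genes.

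**Figure D5:**
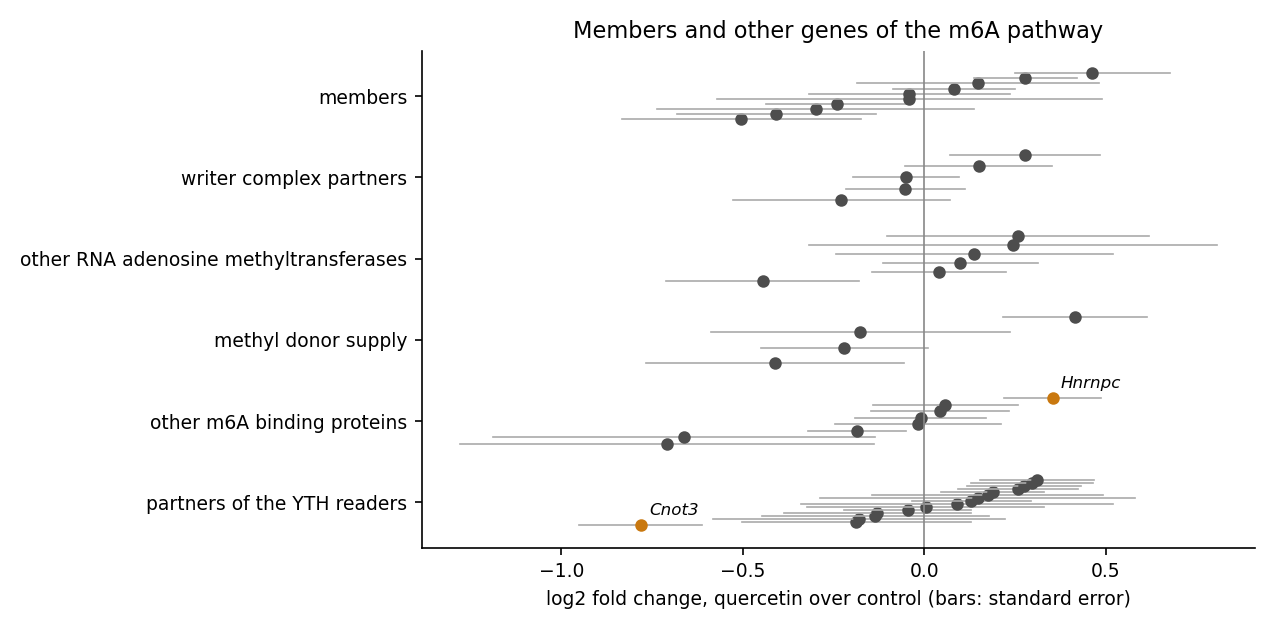
Log2 fold change of the 10 members and of the 39 tested genes of the other lists, quercetin over control, with the standard error as a bar. Filled orange points mark the 2 genes with an unadjusted p under 0.05, *Hnrnpc* at 0.35 and *Cnot3* at -0.78.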

How the data were processed

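The authors deposited counts, whole numbers of reads per Ensembl gene and pool, without normalization. The paper's methods name Hisat2 and GRCm38.91, while the submitters' processing notes list TopHat2 2.0.6 and CASAVA 1.8. The counting program, its strand setting and its treatment of reads that match several genes are not given in the sources used here. Groups and replicate numbers came from the sample titles. Symbols (53274 of 53465 rows matched), exon lengths and transcript sequences came from GENCODE M21 on GRCm38, and no protein sequences were used here.

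Genes passed filterByExpr of edgeR 4.0.16 (minimum count 10), were scaled by TMM and fitted with glmQLFit and glmQLFTest, with Benjamini-Hochberg adjustment over all 11842 genes, in R 4.3.3. Intervals are at 95% for each gene alone, from the standard error and degrees of freedom of the fit. The exact permutation test used log2(CPM + 0.5). CPM per kilobase used the union of exons. Since the labels do not say that pools came from separate mice, p-values measure the spread between these pools. No 2 pools of a group agreed within sampling noise (chi-square per degree of freedom 15.7 to 37.3). Counts of 11842 genes were also simulated for this comparison, with 200 changed and each gene drawn independently. Shifts common to many genes of a pool were not simulated, so the shares may not hold for the real pools. Of the changed genes that passed the filter, 27.9% reached an adjusted p under 0.05 at 2-fold, 82.5% at 4-fold and 100% at 8-fold.

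Named were all members, list genes with an unadjusted p under 0.05, the most abundant 1 or 2 of each list, list genes under the filter, and the 3 genes most like 2 members. The members and lists were chosen with earlier results of these data known. The alternatives tried were the Wald test of DESeq2 1.42.0, the edgeR likelihood ratio test, other scalings and filters, leaving out each pool, a replicate block, and the longest transcript as length. The sources used here do not say whether replicate numbers pair the pools. Deviations from the group mean correlated at 0.296, 0.101 and -0.0303 between same-numbered pools. Their mean was 0.122, against -0.0612 for differently numbered pools, and so few values cannot decide the pairing.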

Additional observations from a re-analysis of the deposited data

How the results depend on the processing

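No member passed the adjusted rule in any alternative run. Over all genes that rule gave 0 in the quasi-likelihood fit, 11 with DESeq2, 16 with edgeR's likelihood ratio test, 3 without a filter, and 0 to 7 when a pool was left out (7 without quercetin replicate 1, 6 without quercetin replicate 3). An unadjusted p under 0.05 was met by 477 genes, by 780 without a filter, and by 241 (without control replicate 2) to 1563 (without quercetin replicate 3). Of the 10 members, 0 met it in the quasi-likelihood fit. *Mettl3* alone met it with DESeq2, with DESeq2's size factors and with the replicate block. Of all 11842 genes, 384, 499 and 492 met it in these settings. With a pool left out, 0 to 3 members met it. Without quercetin replicate 3 there were 3 (*Mettl3*, *Ythdf1*, *Ythdf2*), beside 1563 of all 12258 genes tested in that setting. Without quercetin replicate 2 there were 2 (*Mettl3*, *Ythdc1*), beside 324 of 12258. Without control replicate 1 there was 1 (*Mettl3*), beside 481 of 12227. Of the 39 other genes of the pathway, 2 met it, 1 with the likelihood ratio test and 1 with the replicate block. With a pool left out, 1 to 9 met it (1 without control replicate 2, 4 without control replicate 3, 9 without quercetin replicate 3). Of all genes, 241 of 12186, 428 of 12210 and 1563 of 12258 met it in those leave-out settings, in the same order. Groups did not overlap for 2 members, for 1 by library size only, and for 2 to 6 with a pool left out (6 without quercetin replicate 3). Of all tested genes 10.6% did not overlap, 11.2% by library size only, 16.2% to 20.5% with any of 5 pools left out and 31.7% without quercetin replicate 3.

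Of 129 member fits under the alternatives, 12 changed direction, and none of those members was past a threshold. Without 1 pool, the log2 fold change of *Mettl14* ran from -0.91 to 0.39, of *Ythdf3* from -0.24 to 0.41, of *Ythdc2* from -0.21 to 0.19, of *Wtap* from -0.050 to 0.23 of *Fto* from -0.53 to 0.0098, of *Ythdc1* from -0.83 to -0.23, of *Ythdf1* from -0.77 to -0.36 and of *Alkbh5* from -0.39 to -0.12. By library size only *Wtap* was at -0.013. *Mettl3* stayed between 0.27 and 0.59 and *Ythdf2* between 0.19 and 0.37 in all alternatives. With the replicate block (pairing by number, which the deviations cannot decide) *Mettl3* had 0.45 and *Mettl14* -0.35, and 0 genes passed the adjusted rule. *Fto* could not be fitted with at least 10 counts in every pool. The causes of these shifts were not tested. *Fto* had 8 to 23 and *Ythdf1* 16 to 33 counts per pool.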
